A study of Mus musculus with 4 samples.

Results

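The genes of the TGF-beta and BMP pathways were examined in RNA-seq of mouse embryonic fibroblasts (MEFs) with and without *Phf2*, which encodes a histone demethylase-like protein with a PHD finger that binds trimethylated lysine on histone tails. The set was fixed by symbol and held 49 of the 24391 genes of the count table: 15 ligands, 11 receptors, 4 latent TGF-beta binding proteins, 6 antagonists and follistatins, 8 Smads and 5 target genes. The rule used gene symbols only. The data were 2 WT and 2 *Phf2* KO libraries of primary MEFs from E13.5 embryos, held in a non-dividing state. By the labels all 4 libraries were Phf2 flox/flox with ERCre/+, a tamoxifen-inducible Cre recombinase expressed from the Rosa26 locus, and tamoxifen was given to the *Phf2* KO libraries only. The described treatment was 0.5 µM 4-hydroxytamoxifen (4-OHT) for 7 days in Opti-MEM with 2% charcoal-treated serum, and no source used here names the medium or vehicle of the WT cells. 4-OHT, Cre activity and the loss of *Phf2* therefore cannot be told apart in these libraries.

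Ligands of the TGF-beta family are secreted dimers that bind a pair of receptor kinases, the type II receptor activating the type I receptor. TGF-beta and activin ligands signal mainly through Smad2 and Smad3, BMP ligands through Smad1, Smad5 and Smad9, and both branches share Smad4. The Id genes, which encode inhibitors of basic helix-loop-helix transcription factors, are classic direct targets of the BMP branch, and Smad6 and Smad7 are inhibitory Smads that the pathway induces as feedback. Fibroblasts make TGF-beta in a latent form that is held in the extracellular matrix by some of the latent TGF-beta binding proteins. Fibroblasts respond to TGF-beta by making matrix.

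The libraries held between 21094743 and 26094268 counts, and 13668 genes passed the filter on low counts. *Phf2* itself was at 135 and 142 CPM (counts scaled to library size) in WT replicates 1 and 2 and at 70.1 and 89.7 CPM in the *Phf2* KO libraries, or 57.9% of the WT mean; the counts cover the whole gene and not the deleted part alone. *Xist*, the RNA of the inactive X chromosome, had 10042 and 8336 counts in replicate 1 of WT and *Phf2* KO and 3 and 12 counts in replicate 2, while the Y-linked *Ddx3y* had 6 and 10 counts in replicate 1 and 1271 and 1295 in replicate 2. Replicates 1 and 2 thus differed in sex in the same way in both groups. All 10 fibroblast markers were detected, with summed levels of 57170 to 68830 CPM. The 15 macrophage markers summed to 4055 and 4625 CPM in replicate 1 of WT and *Phf2* KO and to 887 and 1397 CPM in replicate 2, and all 15 were higher in replicate 1 in both groups. Within replicate 2 all 15 were also higher in *Phf2* KO than in WT, and within replicate 1 it was 10 of 15. In bulk RNA, fewer cells of a type and less RNA per cell cannot be told apart. For this reason the log2 ratio of *Phf2* KO to WT is given within each replicate number beside the pooled value.

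The question of this comparison was which pathway genes differ in expression when *Phf2* is deleted. The data showed no member past the threshold with genotype as the only term. The log2 ratio of *Phf2* KO to WT had the same direction in both replicate numbers for 38 of 46 tested members (82.6%). The share was 62.7% over all genes tested. With the replicate number as a block, as described below, edgeR called 18 of 46 members, limma-voom 16 of 46 and DESeq2 8 of 39. The shares over all genes were 11.0%, 10.0% and 3.67%. The 8 members called by DESeq2 were also among those called by edgeR and limma-voom. Of these 8, *Id1*, *Id2*, *Id3*, *Bmp4*, *Tgfb3* and *Ltbp2* were called higher in *Phf2* KO, and *Ltbp4* and *Tgfbr2* lower. Of the 49 members, 46 passed the filter. The 3 that did not were *Bmp5*, with 1 to 14 counts per library, *Bmp7*, with 1 or 2, and *Gdf5*, with 4 to 7. With genotype as the only term, edgeR's quasi-likelihood test called 0 of the 46 members at an adjusted p under 0.1 (adjusted p = 0.999 for each), against 1 gene, or 0.00732%, of all genes tested. At an unadjusted p under 0.05 there were 3 members, *Ltbp4*, *Id2* and *Smad3*, against 4.21% of all genes, and DESeq2 called 0 members against 0.399% of all genes. The fold changes of the 46 members lay between -0.52 and 0.57 on the log2 scale, with a median of 0.02 against 0.01 over all genes tested. With 24 positive and 22 negative values, the members did not share a direction as a set.

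The groups did not overlap for 19 of the 46 members (41.3%), 8 with both *Phf2* KO libraries above both WT libraries and 11 with both below, against 33.5% of all genes tested. A difference of over 0.3 on the log2 scale in the same direction within both replicate numbers was found for 8 members (17.4%), 5 higher and 3 lower, against 8.54% of all genes. When the replicate number was entered as a block, which left 1 residual degree of freedom, edgeR called 18 of the 46 members, 11 higher and 7 lower, or 39.1%, against 11.0% of all genes, of which 5.77% were higher and 5.20% lower. No source used here states that libraries of the same number are pairs. With the block, limma-voom called 16 members, 11 higher and 5 lower, against 10.0% of all genes, and DESeq2 called 8 of the 39 members to which it gave an adjusted p, 6 higher and 2 lower, against 3.67%. Members had a median of 998 counts per library against 498 over all genes tested, and the part of depth in the share called was not tested. In the text below, a p from the block is named as such.

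**Figure D1:**
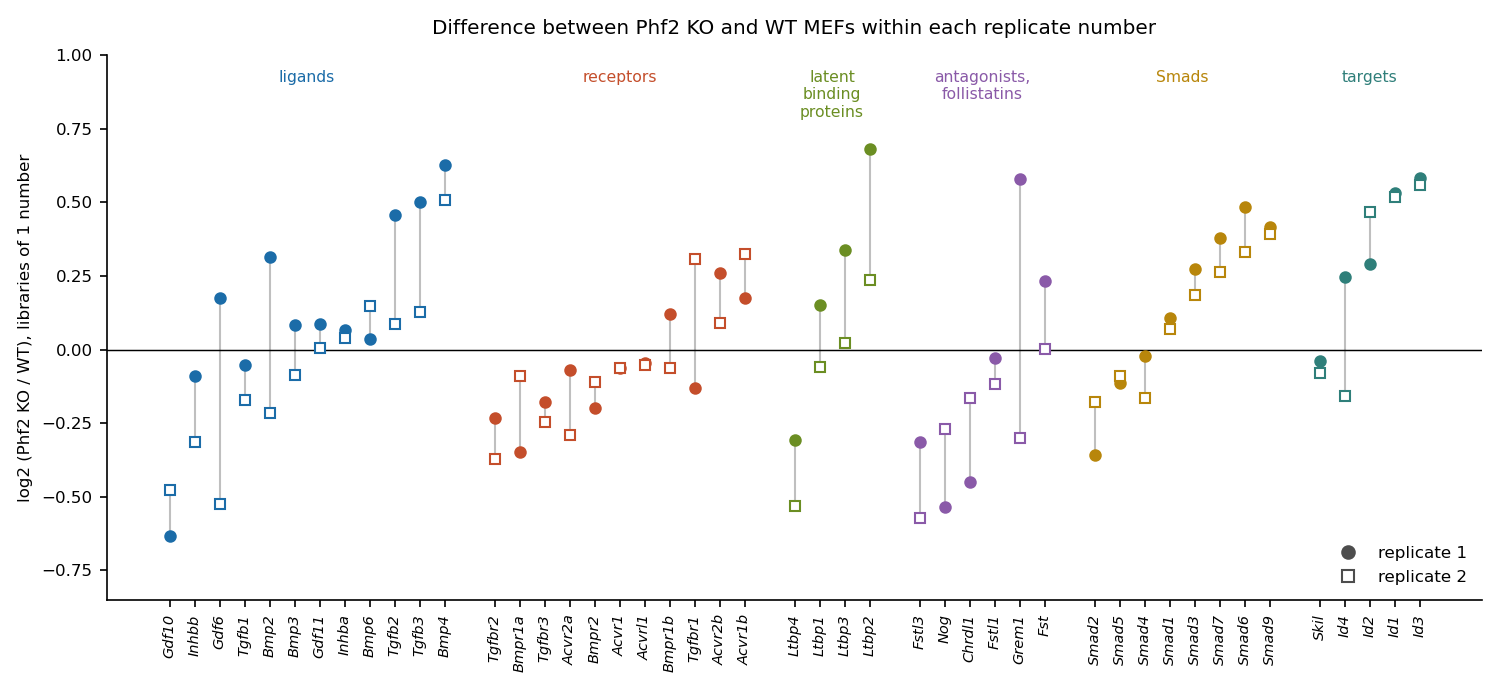
Difference between *Phf2* KO and WT for each member that passed the filter, as the log2 ratio of normalized CPM between the libraries of 1 replicate number (vertical axis), for replicate 1 (filled circles) and replicate 2 (open squares), with members grouped by role. *Id1*, *Id3* and *Bmp4* lie above 0.5 in both replicate numbers, and *Gdf10* is the lowest in replicate 1, at -0.63.

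Targets of the BMP branch held 2 of the 3 highest fold changes of the set, those of *Id3* and *Id1*, with *Bmp4* between them. *Id3* (chromosome 4, 135699412 to 135701670, forward strand, mm9) was at 158 and 217 CPM in WT replicates 1 and 2 and at 237 and 319 CPM in the *Phf2* KO libraries. Both *Phf2* KO libraries were above both WT libraries, and replicate 2 was the higher in each group. Its log2 fold change was 0.57 (SE 0.22, unadjusted p = 0.0554 and adjusted p = 0.999 in edgeR's test without the block), with 0.58 within replicate 1 and 0.56 within replicate 2. *Id1* (chromosome 2, 152561987 to 152563146, forward strand) was at 25.2 and 33.0 CPM in WT and 36.5 and 47.3 CPM in *Phf2* KO. These groups did not overlap either, and the log2 fold change was 0.53 (SE 0.20), with 0.53 within replicate 1 and 0.52 within replicate 2. *Id2* (chromosome 12, 25778666 to 25780957, reverse strand) was at 67.7 and 67.8 CPM in WT and at 82.8 and 93.8 CPM in *Phf2* KO. The WT libraries were nearly level, and the log2 fold change was 0.38 (SE 0.09, unadjusted p = 0.0118, edgeR). With the block, edgeR called all 3 higher, with adjusted p = 4.5e-09 for *Id3*, 2.67e-06 for *Id1* and 0.00027 for *Id2*. Of the 15 macrophage markers, 10 were higher in *Phf2* KO within replicate 1 and all 15 within replicate 2. Their median log2 ratios were 0.19 and 0.60 within replicates 1 and 2, and their part in the Id values was not tested. Without the block, leaving out 1 library gave log2 fold changes of 0.34 (without *Phf2* KO replicate 2) to 0.80 (without WT replicate 2) for *Id3* and of 0.33 to 0.72 for *Id1*, at the same libraries. *Id4*, the remaining member of the Id family, overlapped between the groups, with a log2 fold change of 0.04 (SE 0.15). *Skil*, which encodes a repressor of Smad-driven transcription that TGF-beta induces, was at 27.3 to 29.1 CPM in all 4 libraries, with a log2 fold change of -0.06.

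**Figure D2:**
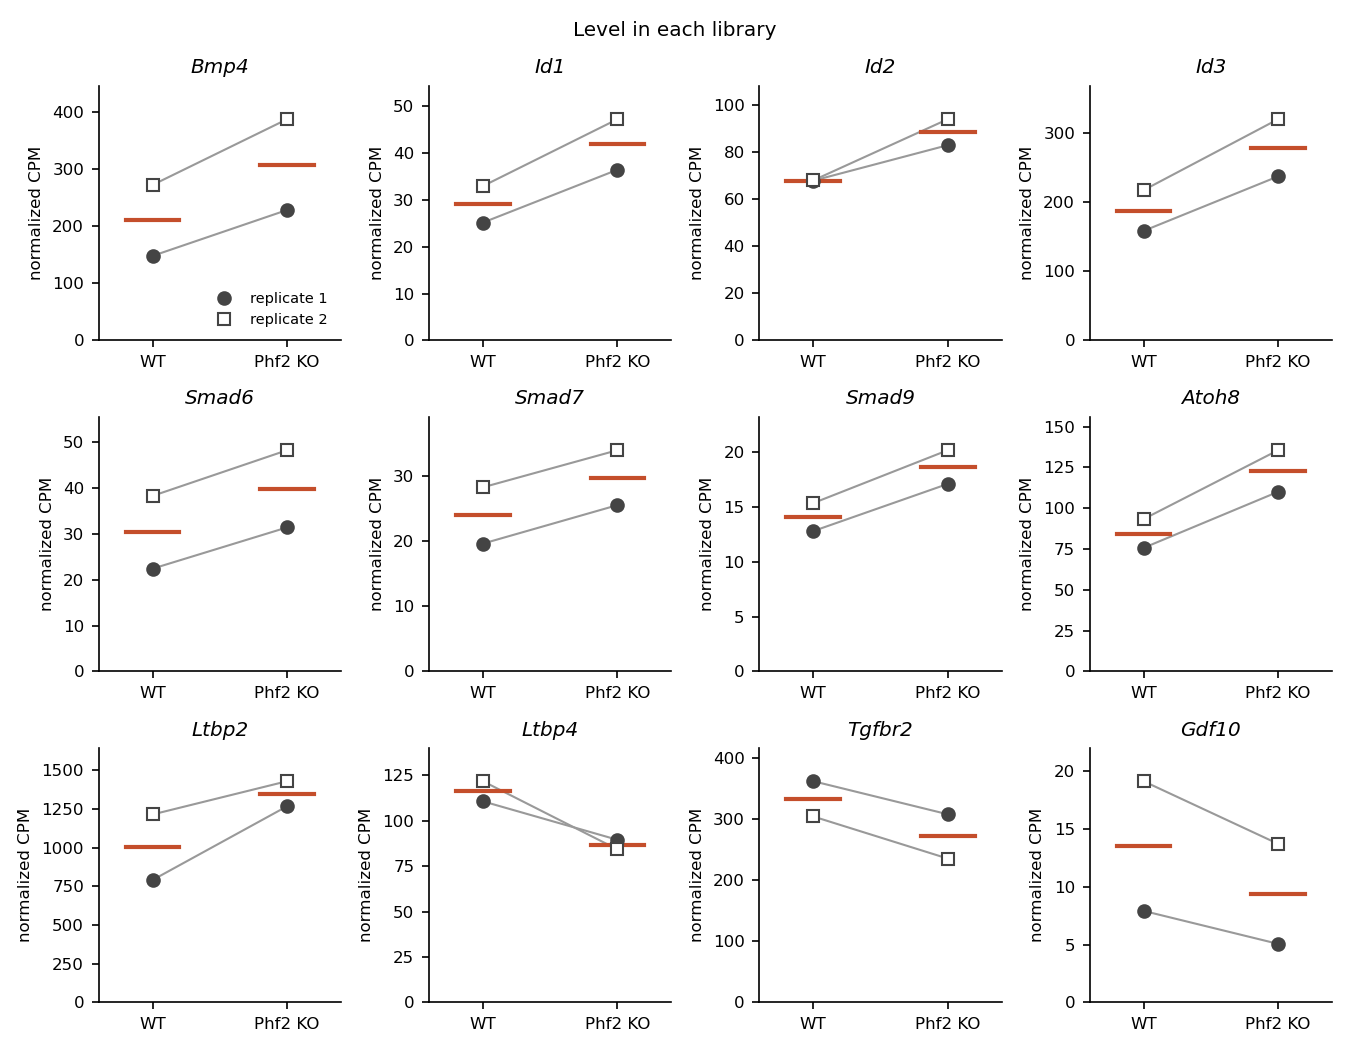
Level of 11 members and of *Atoh8*, another BMP target, in each library, as normalized CPM (vertical axes from 0). Points are libraries, lines join libraries of the same replicate number, and red bars are the means of 2 libraries; *Id1*, *Id2* and *Id3* do not overlap between groups, while *Bmp4*, *Smad6* and *Smad7* differ more between replicate numbers than between genotypes.

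All 8 Smads had the same direction within both replicate numbers, against 62.7% of all genes tested. With the block, edgeR called 5 of the 8, against 11.0% of all genes. *Smad3*, *Smad6*, *Smad7* and *Smad9* were called higher in *Phf2* KO, and *Smad2* lower. *Smad9*, a BMP-branch receptor Smad (chromosome 3, 54559504 to 54605179, forward strand), was at 12.8 and 15.4 CPM in WT and 17.1 and 20.2 CPM in *Phf2* KO. Both *Phf2* KO libraries lay above both WT libraries, with a log2 fold change of 0.41 (SE 0.16) and values of 0.42 and 0.39 within replicates 1 and 2. *Smad6*, an inhibitory Smad (chromosome 9, 63800953 to 63869866, reverse strand), was at 22.4 and 38.3 CPM in WT and 31.5 and 48.3 CPM in *Phf2* KO. The groups overlapped because replicate 2 was the higher in both, and the log2 fold change was 0.39 (SE 0.34), with 0.49 and 0.33 within the replicate numbers. *Smad7*, the other inhibitory Smad, behaved likewise. It was at 19.6 and 28.2 CPM in WT and 25.5 and 33.9 CPM in *Phf2* KO, with a log2 fold change of 0.31 (SE 0.24). *Smad3* was at 82.0 and 87.9 CPM in WT and 99.3 and 100.0 CPM in *Phf2* KO, with a log2 fold change of 0.23 (SE 0.08, unadjusted p = 0.0371, edgeR). *Smad2* went the other way, at 54.9 and 47.2 CPM in WT and 42.7 and 41.7 CPM in *Phf2* KO, with a log2 fold change of -0.27 (SE 0.11). Thus the 2 receptor Smads of the TGF-beta branch differed from WT in opposite directions, each without overlap between groups. The groups did not overlap for 6 of the 8 Smads, against 33.5% of all genes tested. With the block, edgeR called *Smad6*, *Smad9*, *Smad7* and *Smad3* higher (adjusted p = 0.00084, 0.013, 0.0262 and 0.061) and *Smad2* lower (adjusted p = 0.0369). With the block in limma-voom all 5 were called, and in DESeq2 none was, with adjusted p between 0.151 for *Smad6* and 0.545 for *Smad2*. Without WT replicate 2 the unblocked log2 fold change was 0.81 for *Smad6*, 0.59 for *Smad7* and -0.39 for *Smad2*, and without WT replicate 1 it was 0.07, 0.09 and -0.15. Without *Phf2* KO replicate 2 *Smad6* was at 0.05 and *Smad7* at 0.09, and without *Phf2* KO replicate 1 at 0.67 and 0.50. *Smad1*, *Smad4* and *Smad5* were not called and had log2 fold changes of 0.09, -0.09 and -0.10.

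The promoters of *Id2*, *Smad6* and *Smad9* are shown because, of the members called higher with the block, these held 1 of the motifs searched. The motifs searched on both strands were GGCGCC, a GC-rich Smad1 and Smad5 element, and GTCTAGAC, a palindrome of the Smad-binding box. Each line runs 5' to 3' in the direction of the gene from 250 bases before to 10 bases from its start in RefSeq's GRCm38.p6 promoter table, matches mm9 exactly once, and has the motif in capitals.
Id2: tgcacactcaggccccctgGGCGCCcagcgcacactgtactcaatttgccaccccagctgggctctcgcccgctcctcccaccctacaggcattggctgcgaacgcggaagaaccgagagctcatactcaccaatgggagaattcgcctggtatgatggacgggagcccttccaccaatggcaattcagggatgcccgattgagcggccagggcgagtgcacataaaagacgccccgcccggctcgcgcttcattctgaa
Smad6: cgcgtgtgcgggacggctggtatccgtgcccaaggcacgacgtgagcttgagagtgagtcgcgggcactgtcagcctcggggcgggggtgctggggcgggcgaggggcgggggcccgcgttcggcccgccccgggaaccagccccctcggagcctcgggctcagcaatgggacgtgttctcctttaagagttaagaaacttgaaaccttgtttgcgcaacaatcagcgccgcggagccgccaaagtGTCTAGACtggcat
Smad9: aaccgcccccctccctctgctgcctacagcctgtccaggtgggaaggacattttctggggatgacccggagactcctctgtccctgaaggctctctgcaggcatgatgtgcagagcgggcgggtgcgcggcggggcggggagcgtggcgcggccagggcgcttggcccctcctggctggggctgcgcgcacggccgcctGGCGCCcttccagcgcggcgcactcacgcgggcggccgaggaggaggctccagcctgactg
They lie at chr12:25780948-25781207, chr9:63869857-63870116 and chr3:54559254-54559513 of mm9, on the reverse, reverse and forward strands. GGCGCC began 231 bases before the start of *Id2* and 51 bases before that of *Smad9*, and GTCTAGAC began 4 bases before that of *Smad6*. Of the 49 members, 33 had an entry in the promoter table. Over windows of 300 bases, 11 of these 33 held GGCGCC, against 11.9% of all 32851 promoters. The promoters compared were not matched for base composition or for the level of the gene. The part of either in this share was not tested. Among the 11 were *Id2* and *Smad9*, called higher with the block in edgeR. *Ltbp4*, *Gdf10* and *Bmpr1a*, called lower with the block and not shown, were also among them. Members called higher other than *Id2*, *Smad6* and *Smad9* held neither motif or had no entry in the promoter table. GTCTAGAC was found in 1 of the 33, that of *Smad6*, against 0.213% of all promoters.

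Of the 12 ligands tested, edgeR called 3 higher and 1 lower with the block, against 5.77% higher and 5.20% lower of all genes. *Bmp4* (chromosome 14, 47003195 to 47010344, reverse strand) had the highest level per length of the ligands, at 94.4 ± 39.5 CPM per kilobase of exon in WT and 138 ± 50.5 in *Phf2* KO (SD, n = 2). By library it was at 148 and 272 CPM in WT and 228 and 387 CPM in *Phf2* KO. Replicate 2 exceeded replicate 1 in both groups, so the groups overlapped and the log2 fold change of 0.55 had an SE of 0.39. Within replicates 1 and 2 the log2 ratios were 0.63 and 0.51, and edgeR's test with the block gave adjusted p = 8.74e-09. The unblocked log2 fold change of *Bmp4* was 0.12 without *Phf2* KO replicate 2, 0.19 without WT replicate 1, 0.88 without *Phf2* KO replicate 1 and 1.04 without WT replicate 2. The genes *Gm15217* and *Gm15222* overlap *Bmp4* on the other strand, and no source states whether the counting used strand. *Tgfb3* was at 212 and 307 CPM in WT and 301 and 335 CPM in *Phf2* KO, with log2 ratios of 0.50 and 0.13 within replicates 1 and 2 (block adjusted p = 0.00759, edgeR); its unblocked log2 fold change of 0.29 was 0.06 without WT replicate 1 and 0.57 without WT replicate 2. *Tgfb2*, at 29.8 and 52.9 CPM in WT and 41.0 and 56.1 CPM in *Phf2* KO, had ratios of 0.46 and 0.09 (block adjusted p = 0.0497, edgeR), and its pooled log2 fold change of 0.23 turned to -0.11 without WT replicate 1 and to -0.01 without *Phf2* KO replicate 2, and DESeq2 with the block did not call it (adjusted p = 0.582).

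*Gdf10*, which encodes a BMP-related ligand, was the lowest of the ligands by fold change. It was at 7.92 and 19.1 CPM in WT and 5.07 and 13.7 CPM in *Phf2* KO, with replicate 2 above replicate 1 by over 1.2 log2 units in both groups. Its log2 fold change of -0.52 had an SE of 0.63 and turned to 0.23 without WT replicate 2 and to 0.02 without *Phf2* KO replicate 1, while the ratios within replicates 1 and 2 were -0.63 and -0.48 (block adjusted p = 0.00304, edgeR). *Tgfb1*, the founding member of the family, was at 156 and 76.8 CPM in WT and 151 and 68.3 CPM in *Phf2* KO. It was the member with the greatest excess in replicate 1, by 1.03 log2 units in WT and 1.14 in *Phf2* KO, and its log2 fold change between genotypes was -0.09 (SE 0.51). The macrophage markers were also higher in replicate 1, with the sums given above, and the part of macrophages in the level of *Tgfb1* was not tested. The remaining tested ligands, *Bmp2*, *Bmp3*, *Bmp6*, *Inhba*, *Inhbb*, *Gdf6* and *Gdf11*, had log2 fold changes between -0.20 and 0.09.

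**Figure D3:**
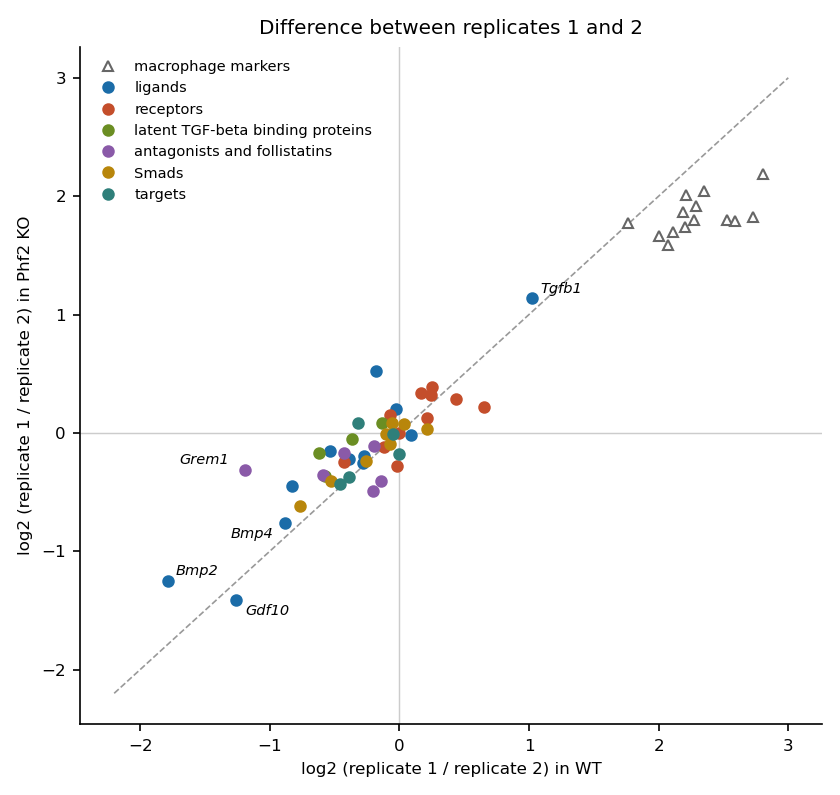
Difference between replicates 1 and 2 of each group, as the log2 ratio of normalized CPM in WT (horizontal axis) and in *Phf2* KO (vertical axis), for the 46 tested members by role and for the 14 tested macrophage markers (triangles), with a dashed line of equality. *Tgfb1* lies at 1.03 and 1.14, toward the macrophage markers, and *Bmp2*, *Gdf10* and *Bmp4* lie on the opposite side.

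Of the 11 receptors edgeR called 0 higher and 3 lower with the block, against 5.77% higher and 5.20% lower of all genes, and their median log2 fold change was -0.06. *Tgfbr2*, the type II receptor of TGF-beta and the receptor with the highest level per length, is on chromosome 9 (115993415 to 116084383, reverse strand). It was at 361 and 304 CPM in WT and 307 and 235 CPM in *Phf2* KO. The groups overlapped, as *Phf2* KO replicate 1 lay just above WT replicate 2, and the log2 fold change was -0.29 (SE 0.17), with -0.23 and -0.37 within replicates 1 and 2. *Tgfbr3*, the co-receptor betaglycan, was at 136 and 115 CPM in WT and 120 and 96.7 CPM in *Phf2* KO, and *Bmpr1a*, a type I BMP receptor, was at 82.6 and 83.8 CPM in WT and 64.8 and 78.8 CPM in *Phf2* KO. With the block, edgeR called the 3 lower (adjusted p = 0.011, 0.094 and 0.0917 for *Tgfbr2*, *Tgfbr3* and *Bmpr1a*). Only *Tgfbr2* was also called in the other fits with the block: the adjusted p of *Tgfbr3* was 0.513 in DESeq2 and 0.117 in limma-voom, and that of *Bmpr1a* was 0.65 and 0.115. Leaving out 1 library without the block gave log2 fold changes of -0.50 (without *Phf2* KO replicate 1) to -0.12 (without *Phf2* KO replicate 2) for *Tgfbr2* and of -0.38 to -0.06 for *Tgfbr3*, at the same libraries, and of -0.36 (without *Phf2* KO replicate 2) to -0.08 (without *Phf2* KO replicate 1) for *Bmpr1a*. *Acvrl1*, a type I receptor best known from endothelial cells, had 22.4 ± 0.07 CPM per kilobase in WT and 21.6 ± 0.01 in *Phf2* KO (SD, n = 2), with a log2 fold change of -0.05. The 6 endothelial markers summed to 9.27 to 22.0 CPM. Of these *Tie1* had no count in any library, *Tek* had 67 to 79 counts and *Kdr* 135 to 441. With the block, edgeR called *Kdr* lower in *Phf2* KO (log2 fold change -0.60, adjusted p = 0.000623) and did not call *Tek*. The other 7 receptors lay between -0.18 and 0.24 on the log2 scale.

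Latent TGF-beta binding proteins differed from WT in both directions. *Ltbp4* (chromosome 7, 28090155 to 28122711, reverse strand) was at 111 and 122 CPM in WT and 89.5 and 84.2 CPM in *Phf2* KO. The groups did not overlap, and at a log2 fold change of -0.42 (SE 0.09) it had the lowest unadjusted p of the members, 0.00692 in edgeR's test, with -0.31 and -0.53 within replicates 1 and 2. *Ltbp2* (chromosome 12, 86124162 to 86217482, reverse strand) was at 790 and 1214 CPM in WT and 1267 and 1428 CPM in *Phf2* KO. Both *Phf2* KO libraries lay above WT, by a log2 fold change of 0.43 (SE 0.23), with 0.68 within replicate 1 and 0.24 within replicate 2. With the block, edgeR called *Ltbp4* lower (adjusted p = 2.74e-05) and *Ltbp2* higher (adjusted p = 0.00035). The unblocked value of *Ltbp2* was 0.16 without WT replicate 1 and 0.75 without WT replicate 2. *Ltbp3* and *Ltbp2* had the highest levels per length of the 4. *Ltbp3* was at 129 ± 23.2 CPM per kilobase in WT and 145 ± 3.64 in *Phf2* KO, and *Ltbp2* at 122 ± 36.5 and 165 ± 14.0 (SD, n = 2). *Ltbp3* and *Ltbp1* overlapped between groups, with log2 fold changes of 0.17 and 0.03.

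Antagonists and follistatins included the member with the highest level per length of all. *Fstl1*, a secreted follistatin-like glycoprotein, was at 569 ± 54.4 CPM per kilobase in WT and 540 ± 28.3 in *Phf2* KO (SD, n = 2), with a log2 fold change of -0.08 (SE 0.13) that turned to 0.01 without WT replicate 2. *Chrdl1*, a chordin-like BMP antagonist, was at 40.2 and 46.4 CPM in WT and 29.4 and 41.4 CPM in *Phf2* KO. The groups overlapped and the log2 fold change was -0.29 (SE 0.20); it was the only antagonist called with the block, as lower (adjusted p = 0.020, edgeR), and DESeq2 with the block did not call it (adjusted p = 0.501). Its unblocked value was -0.07 without *Phf2* KO replicate 1, and it was -0.56 when replicate 2 of that group was left out. *Nog*, which encodes noggin, and *Fstl3* were lower in both *Phf2* KO libraries than in both WT libraries, at levels of 2.51 to 5.01 CPM, with log2 fold changes of -0.40 (SE 0.24) and -0.47 (SE 0.24), and neither was called. *Grem1* and *Fst*, which encode gremlin and follistatin, overlapped between groups, with log2 fold changes of 0.03 and 0.10, and the latter turned to -0.15 without WT replicate 1.

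**Figure D4:**
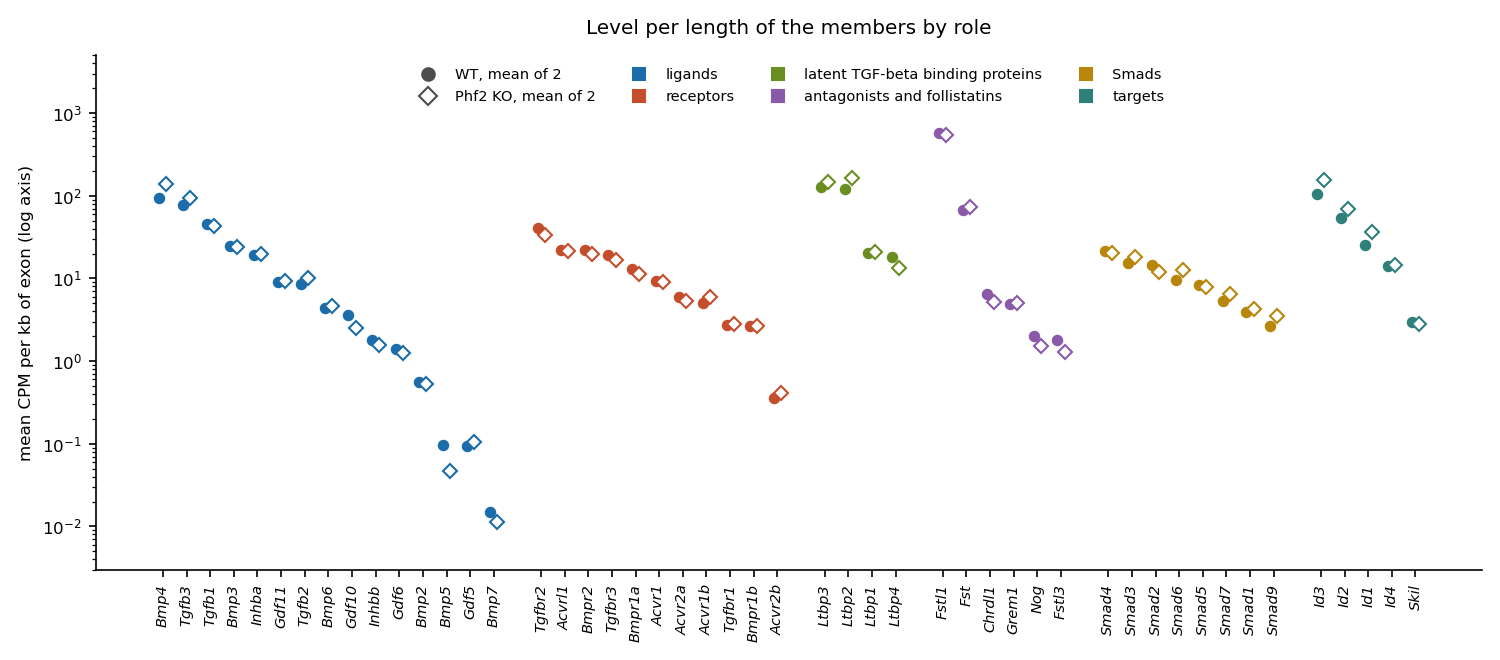
Mean level of the members, as normalized CPM per kilobase of exon (vertical axis, log scale), ordered by role, for WT (filled circles) and *Phf2* KO (open diamonds), each the mean of 2 libraries. The levels run from 0.011 in *Phf2* KO for *Bmp7* to 569 in WT for *Fstl1*.

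Beyond the 49 members, 77 further pathway genes were taken by role: other ligands, co-receptors, ligand carriers, transducers and targets. Of the 54 that passed the filter, edgeR called 0, against 0.00732% of all genes, while 4 had an unadjusted p under 0.05, against 4.21% of all genes: *Junb*, *Atoh8* and *Fstl4* higher and *Tll1* lower. Their median log2 fold change was -0.0005. *Junb*, an AP-1 transcription factor that TGF-beta induces, was at 35.2 and 36.4 CPM in WT and 55.8 and 50.2 CPM in *Phf2* KO. The groups did not overlap, and the log2 fold change was 0.57 (SE 0.10, unadjusted p = 0.00322, edgeR). *Atoh8*, a helix-loop-helix factor that BMP signalling induces, was at 75.7 and 93.3 CPM in WT and 110 and 136 CPM in *Phf2* KO, and its log2 fold change of 0.54 (SE 0.16) was 0.54 within each replicate number. These groups did not overlap either, and edgeR's test with the block gave adjusted p = 1.15e-08 for *Atoh8* and 7.78e-08 for *Junb*. *Fstl4* had 4 to 14 counts per library, and *Tll1*, a protease that cleaves chordin, was at 6.43 and 5.35 CPM in WT and 3.81 and 4.28 CPM in *Phf2* KO. With the block 7 of the 54 were called (13.0%), 4 higher and 3 lower, near the 11.0% of all genes, and of the 15 targets among them 3 were called.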

How the data were processed

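RNA-seq reads of 2 WT and 2 *Phf2* KO libraries were processed by the authors with Trim Galore, with ribosomal reads removed by bowtie2, alignment by STAR (reverse stranded) to mm9, and featureCounts; the versions, the annotation release and the strand setting of the counting are not given in the sources used here. The deposited values are raw counts per gene symbol for 24391 genes, with no normalization and no pooling of libraries. A second deposited table holds the authors' own comparison (fold changes, errors, statistics and p-values) and was not used.

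Genes were filtered with filterByExpr (13668 left), scaled by TMM and tested with edgeR 4.0.16 (quasi-likelihood, two-sided, R 4.3.3) with genotype as the only term, Benjamini-Hochberg adjustment over all genes tested and a threshold of 0.1. Alternatives were other scalings and filters, DESeq2 1.42.0, limma-voom (limma 3.58.1), the replicate number as a block, other thresholds and leaving out each library; the block in DESeq2 and in limma-voom was added after seeing the data. The code was tested on simulated data. CPM are scaled to the TMM-adjusted library size, 3 counts being 0.116 to 0.145 CPM. Ratios within a replicate number used CPM plus 0.125. Tables were made with Python 3.11.15 (pandas 2.3.3, NumPy 2.4.6) and plots with Matplotlib 3.10.9. Positions and exon lengths are those of the GENCODE annotation of mm9, in which all 49 members were found.

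Members given with full values are those with an unadjusted p under 0.05, those called with the block, and the 2 highest per kilobase of exon in each role (23 members); others are named where a count needs them, and such names were chosen after their values were seen. Members and lists were chosen with earlier results of these data known. The labels number the libraries without saying that they came from separate cultures. The paper describes the replicates of this RNA-seq as biological, and libraries of different number differed in sex in both groups. The spread between replicate numbers is therefore not technical alone. The p-values measure only the spread between these samples.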

Additional observations from a re-analysis of the deposited data

How the results depend on the processing

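The number of members called by edgeR was 0 with the other scalings, filters and thresholds, with 3 to 5 members at an unadjusted p under 0.05, as it was in DESeq2 (5 unadjusted), in limma-voom (4 unadjusted) and in every fit that left out 1 library (0 to 0), where the unadjusted count was 2 to 11, the 11 being without WT replicate 2. With the replicate block it was 18 in edgeR, 8 in DESeq2 and 16 in limma-voom. The 8 were *Bmp4*, *Id1*, *Id2*, *Id3*, *Ltbp2*, *Ltbp4*, *Tgfb3* and *Tgfbr2*, all among the 18, and limma-voom lost *Tgfbr3* and *Bmpr1a*. *Gdf10* had no adjusted p in DESeq2, and for the other 9 it was above 0.1. For the other pathway genes the count of 0 became 1 in DESeq2 (*Junb*), 7 with the block in edgeR, 2 with the block in DESeq2 and 8 with the block in limma-voom, and stayed at 0 to 0 without 1 library. For all genes the count of 1 became 64 in DESeq2, 0 in limma-voom, 1500 with the block in edgeR, 297 with the block in DESeq2, 1371 with the block in limma-voom, 0 at a threshold of 0.05 or 0.01, and 0 to 0 without 1 library. The labels give both groups replicate numbers 1 and 2 but do not state a pairing. The differences between replicates 1 and 2 had a correlation of 0.854 between WT and *Phf2* KO, across 11556 genes with a mean of at least 50 counts (genes are not independent replicates), and the common dispersion was 0.0451 without the block and 0.00363 with it.

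Of the 23 members given with full values, none changed direction under another scaling, filter, test or block. Leaving out 1 library turned the direction of 4: the log2 fold change ranged from -0.15 to 0.41 for *Fst*, from -0.11 to 0.69 for *Tgfb2*, from -1.41 to 0.23 for *Gdf10* and from -0.16 to 0.010 for *Fstl1*. *Fst* and *Tgfb2* turned without WT replicate 1 and without *Phf2* KO replicate 2, *Gdf10* without WT replicate 2 and without *Phf2* KO replicate 1, and *Fstl1* without WT replicate 2. The cause was not tested. Depth kept *Bmp5*, *Bmp7* and *Gdf5*, with 1 to 14 counts per library, out of the main fit. The fit of all genes with at least 1 count tested all 49 members and called 0.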
